A study of Mus musculus with 6 samples.

Results

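Genes of kinase cascades and of the phosphatases that oppose them were examined in the lists of cytosines whose methylation differed between mouse LSK cells with and without Tet1. The members were all listed sites whose nearest gene has a symbol of the form Map, digits, k, or one that begins with Mapk, Dusp, Ptpr, Ptpn, Prkc, Camk, Dgk, Pik3, Inpp, Ppp1r, Ppp2r or Pde, with Pde4dip left out. This rule found 95 of the 6756 listed sites, nearest to 57 of 3344 genes. LSK cells are bone marrow cells without lineage markers that carry Sca-1 and Kit, a fraction that holds the blood stem and progenitor cells. They were sorted from 6-month-old WT mice (3 samples) and Tet1 KO mice (3 samples), and both groups carry the strain label CD57BL/6. The sources used here do not say how the knockout allele was made or whether each sample is 1 mouse. Tet1 encodes a dioxygenase that oxidises 5-methylcytosine on the way to its removal.

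Methylation had been read by enhanced reduced representation bisulfite sequencing, which favours CpG-rich fragments and counts 5-hydroxymethylcytosine as methylated. The authors' deposited tables give 1 methylation difference per cytosine, in percentage points, taken here as knockout minus wild type from the list names and signs. "Listed difference" means that value throughout. The tables start at 25 percentage points and carry no level, coverage or p-value per sample. The spread between replicates and the depth are therefore unknown, no comparison could be tested, and counts are set beside the same counts over all listed sites. Tet1 itself had 0 listed sites, and the lists hold no readout with which the genotype or the cell type could be checked. A gene name here means the gene with the nearest transcription start.

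MAP kinase cascades pass a signal from a membrane receptor through successive kinases to the nucleus, and dual-specificity phosphatases end it by removing phosphate from the last kinase. Phosphoinositide 3-kinases, diacylglycerol kinases and protein kinase C act on or respond to membrane lipids, and receptor-type and cytosolic tyrosine phosphatases reverse the work of tyrosine kinases. Regulatory subunits direct protein phosphatases 1 and 2A to their substrates, and phosphodiesterases break down cyclic nucleotides. In blood progenitors these pathways carry cytokine and growth factor signals.

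Several members were listed close to a transcription start, and the sequence before 4 of these starts is shown to make the CpG content of those stretches visible. The sequences are those of RefSeq for GRCm38.p6, a build later than that of the tables (mm9). They cover the 250 bases before the start, 5′ to 3′ on the strand of the gene, with every CpG in capitals. They therefore do not carry the positions of the tables, and the start in RefSeq need not be the start used there.
Dgki: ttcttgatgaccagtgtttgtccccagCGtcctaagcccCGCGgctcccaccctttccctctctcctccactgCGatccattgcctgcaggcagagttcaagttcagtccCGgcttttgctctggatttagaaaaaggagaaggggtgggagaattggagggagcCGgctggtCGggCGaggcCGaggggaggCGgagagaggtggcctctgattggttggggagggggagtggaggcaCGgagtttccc
Ppp1r14d: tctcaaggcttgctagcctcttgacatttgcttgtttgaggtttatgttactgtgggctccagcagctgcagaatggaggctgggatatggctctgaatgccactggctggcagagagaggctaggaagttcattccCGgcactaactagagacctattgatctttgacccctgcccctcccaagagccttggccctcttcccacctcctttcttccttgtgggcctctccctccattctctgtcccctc
Pik3r2: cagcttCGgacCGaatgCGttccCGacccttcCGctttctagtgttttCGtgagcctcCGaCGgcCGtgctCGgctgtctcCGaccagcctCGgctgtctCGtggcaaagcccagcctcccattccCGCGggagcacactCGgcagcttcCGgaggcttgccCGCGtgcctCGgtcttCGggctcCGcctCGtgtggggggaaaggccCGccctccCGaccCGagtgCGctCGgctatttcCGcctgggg
Prkcz, an internal start: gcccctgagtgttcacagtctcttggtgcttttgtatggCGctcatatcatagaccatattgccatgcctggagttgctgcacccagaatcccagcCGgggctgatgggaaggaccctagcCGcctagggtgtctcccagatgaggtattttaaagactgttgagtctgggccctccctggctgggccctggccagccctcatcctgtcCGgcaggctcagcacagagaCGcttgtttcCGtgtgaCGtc

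These 4 stretches differ in CpG content. The one before Pik3r2 holds 29 CpGs, that of Dgki 11, the printed one of Prkcz 7 and that of Ppp1r14d 1. RefSeq gives 3 stretches for Prkcz, with 25, 7 and 10 CpGs, and the second is printed. Its start lies 15639 bp downstream of the first, and it was not matched to the internal start used for the listed distances. None of the listed cytosines of Dgki, Ppp1r14d and Pik3r2 falls inside its stretch if the start is that of the tables: they lie 442 and 483 bp upstream, 306 bp upstream, and 676 and 689 bp downstream of the start. In Prkcz the listed promoter cytosines lie 146 and 171 bp before an internal start in mm9. None of the RefSeq stretches of this gene has a CpG at both offsets, so the cytosines were not placed in the sequence. The single member cytosine that could be placed is that of Ptprm, 16 bp downstream of its start, shown with the CpG in capitals and 14 bases on either side.
Ptprm: cggcgcgccactgcCGgaggtggctggggc

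The cytosines of this module were mostly more methylated in the knockout. Of the 95 sites 88 were hypermethylated (92.6%; the exact 95% interval by Clopper-Pearson runs from 85.4 to 97.0% and covers counting error only), where 92.8% of all listed sites were, so the direction was that of the lists as a whole. In bulk DNA a change within cells and a change in the makeup of the sorted cells cannot be told apart. By gene, 50 of the 57 members (87.7%) had hypermethylated sites alone against 87.0% of all nearest genes. The other 7 had a hypomethylated site, and 3 of these had both kinds. The hypermethylated member sites had a median listed difference of 39.4 percentage points (range 25.1 to 81.8), and all 6270 hypermethylated sites a median of 41.1. The 7 hypomethylated member sites had a median of -34.6 percentage points (range -74.7 to -25.6), against -34.1 for all 486. Of the members 36 had a single site, 12 had 2 and 9 had at least 3, which is 15.8% of the members against 22.8% of all nearest genes.

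**Figure D1:**
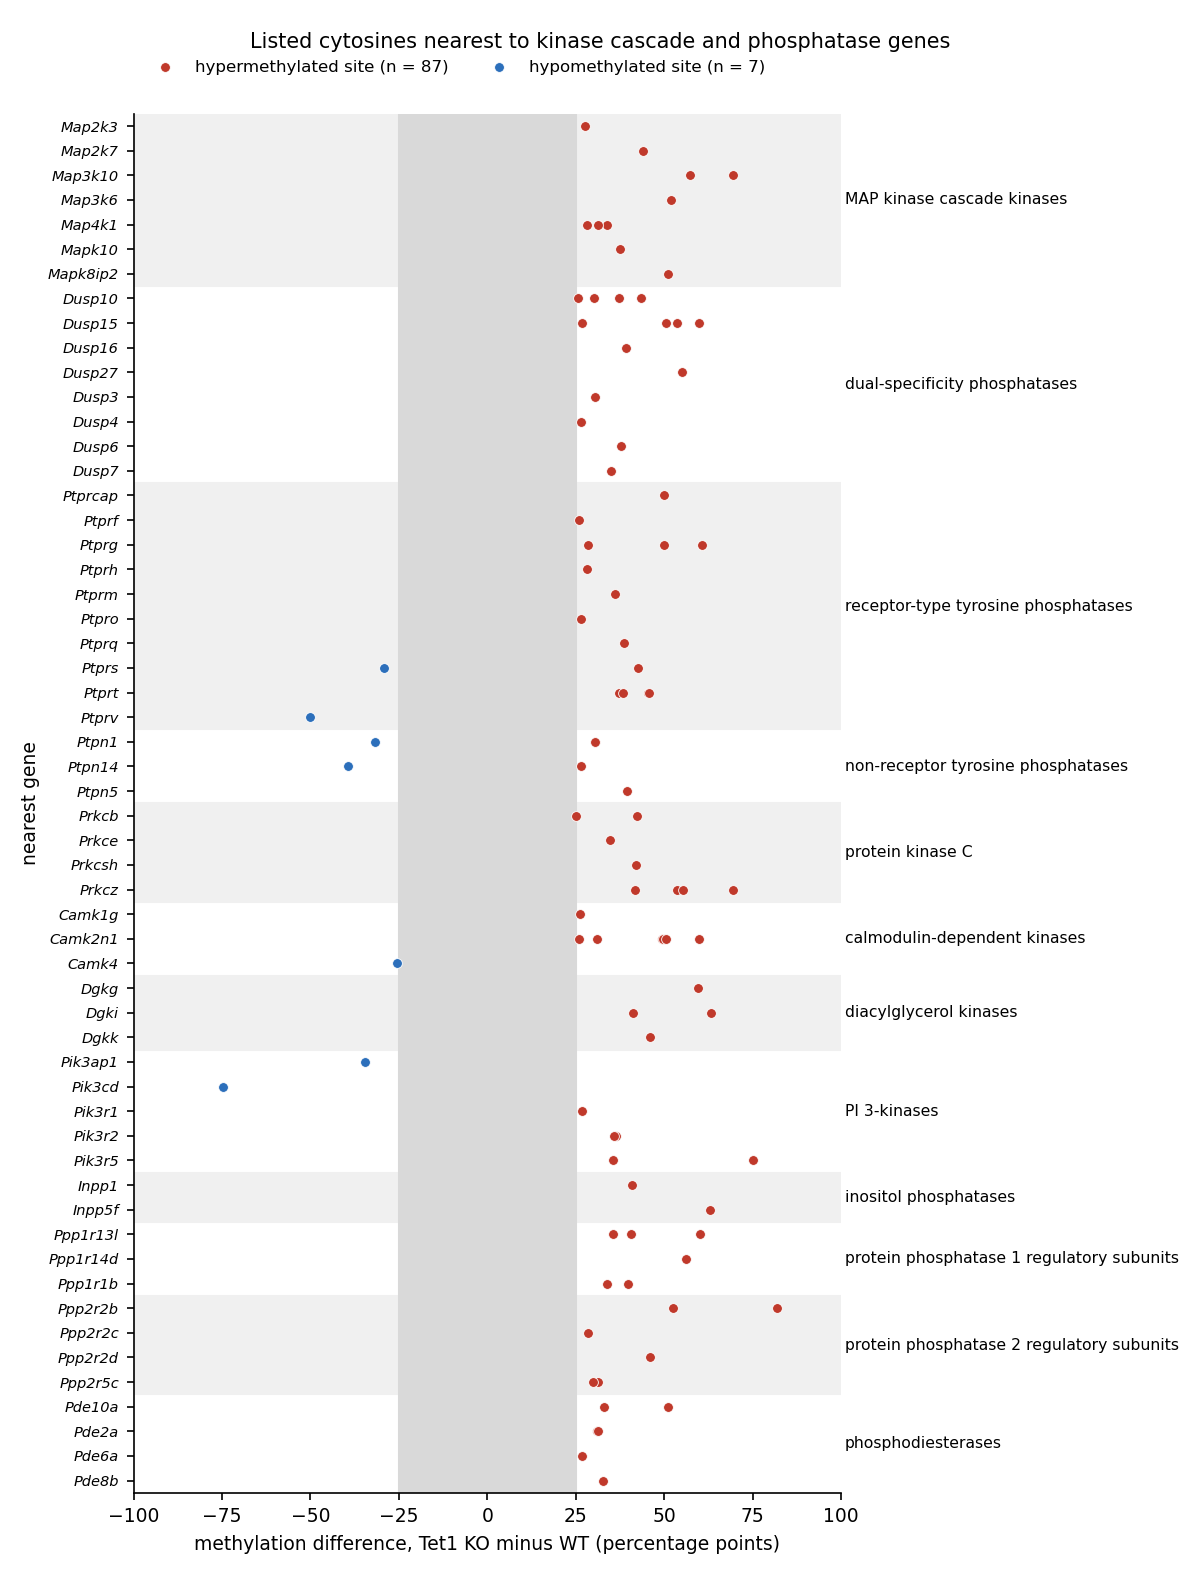
Listed methylation difference (percentage points, Tet1 KO minus WT) of 94 of the 95 member sites, 1 row per nearest gene, genes grouped by family; the grey band marks differences under 25 percentage points, which the tables leave out. The 87 hypermethylated sites drawn reach 81.8 at Ppp2r2b, and the 7 hypomethylated sites reach -74.7 at the site nearest Pik3cd.

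Of the protein-coding genes in RefSeq that belong to the 12 name families, 56 of 257 (21.8%) were nearest to a listed site, and 13.7% of all 21896 protein-coding genes were. The remaining member, Ptprv, is a transcribed pseudogene in RefSeq. The share ran from 5 of 10 protein kinase C symbols and 9 of 21 receptor-type tyrosine phosphatases to 7 of 54 MAP kinase cascade genes and 3 of 41 regulatory subunits of protein phosphatase 1. Genes of the families are long: their median length is 47638 bp, against 17149 bp for all protein-coding genes. They also have more CpGs in the 300 bases around the start, with a median of 21 against 13. The part of gene length and CpG content in the share was not tested, and cytosines that were read but not listed were not used here.

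**Figure D2:**
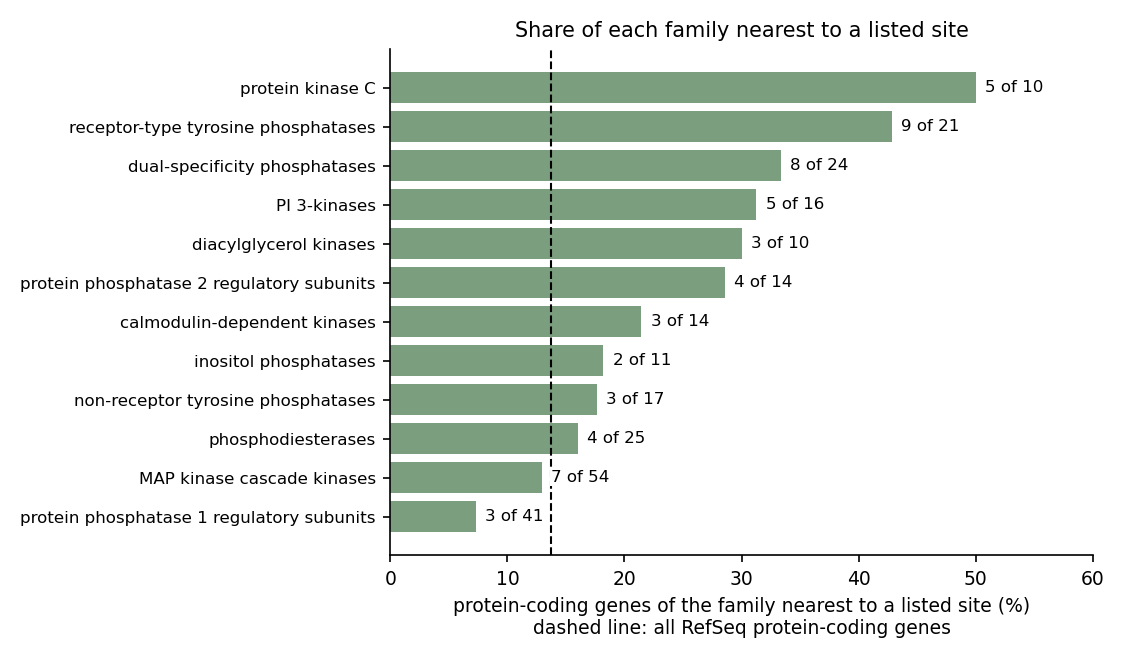
Share of the protein-coding genes of each name family that were nearest to a listed site (%), with the counts at the bars; the dashed line is the 13.7% of all RefSeq protein-coding genes. The shares run from 7.32% (protein phosphatase 1 regulatory subunits) to 50.0% (protein kinase C).

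In the MAP kinase cascade, all 10 sites of the 7 listed genes were hypermethylated, where 92.8% of all listed sites were. With so few sites, here and in the families below, the absence of hypomethylated sites sets no family apart. The highest were at Map3k10, a mixed lineage kinase upstream of JNK, whose 2 sites in exon 1 of 10 (chromosome 7, 28458478 and 28458511, mm9) had listed differences of 57.4 and 69.6 percentage points, 1139 and 1106 bp downstream of the start. The genes Map2k7, Mapk10 and Mapk8ip2 belong to the same branch. Map2k7, which activates JNK, had a promoter site with a listed difference of 44.0 percentage points at 763 bp upstream. A promoter site of Mapk10, which encodes a JNK itself, differed by 37.5 percentage points, and one of Mapk8ip2, a scaffold of the JNK module, by 51.2. Map3k6 had 1 site in intron 21 of 28 at 51.8 percentage points. The site of Map2k3, a kinase that activates the stress kinase p38, carried the label of a promoter, but of the antisense gene Map2k3os, and lay 605 bp downstream of the Map2k3 start with a listed difference of 27.8 percentage points. The 3 sites nearest Map4k1, a kinase of blood cells, were inside exon 91 of 106 of Ryr1, a muscle calcium channel gene, 37219 to 37224 bp from the Map4k1 start. Their listed differences were 28.2, 33.8 and 31.3 percentage points.

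The dual-specificity phosphatases had 14 sites at 8 genes, all hypermethylated and none in a promoter, a label held by 11.2% of all hypermethylated sites. Dusp15 had 4 sites on chromosome 2, between 152769332 and 152771783, in introns 6 and 4 of 6, with listed differences of 26.8, 59.9, 53.7 and 50.4 percentage points. Dusp10, a phosphatase of the stress-activated kinases, had 4 intergenic sites within 34 bp, at least 200813 bp downstream of its start, with listed differences of 37.2, 30.1, 25.6 and 43.4 percentage points. So far from a start, the name says little more than where the cluster lies. Dusp4, Dusp6 and Dusp7, whose products act on ERK, had 1 site each, with listed differences of 26.5, 37.8 and 34.9 percentage points. The single sites of Dusp16, Dusp3 and Dusp27 stood at 39.2, 30.4 and 54.9. The Dusp27 site lay in a LINE repeat.

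Receptor-type tyrosine phosphatases and the genes named with them had 17 sites at 10 genes, 15 of them hypermethylated. Ptprg, which encodes a receptor with a carbonic anhydrase-like ectodomain, had 4 sites within 15 bp on chromosome 14 (12384829 to 12384844), 1223 to 1238 bp upstream of its start, with listed differences of 50.0, 28.6, 60.7 and 60.7 percentage points. All 4 sites of Ptprt were in intron 1 of 29 on chromosome 2, 3 of them within 270 bp and 2399 to 2669 bp downstream of the start. Their listed differences were 45.5, 37.3, 38.5 and 45.8 percentage points. At Ptprm, an adhesion receptor, the cytosine printed above (chromosome 17, 67703783) had a listed difference of 36 percentage points and was the member site nearest to a start. The site nearest Ptprcap, the gene of a protein associated with the leukocyte phosphatase CD45, stood at 49.9 percentage points and carried the label of the end of Rps6kb2. Ptprf, Ptprh, Ptpro and Ptprq had 1 hypermethylated site each, from 25.8 to 38.7 percentage points. The Ptprh site was in a LINE repeat.

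Of the non-receptor tyrosine phosphatases, Ptpn1, Ptpn14 and Ptpn5 were listed, out of 17 genes. Ptpn1, an inhibitor of insulin and cytokine receptor signalling, had hypermethylated sites at 30.3 and 30.4 percentage points, the second of them 1018 bp into the gene in intron 1. It also had a hypomethylated site in the same intron, 24691 bp from the start, at -31.7 percentage points. Ptpn14 had the same arrangement in intron 1 of 18: its site 738 bp from the start was listed at 26.5 percentage points and that at 58254 bp at -39.3. Ptpn5, a phosphatase of neurons, had 1 site in a SINE repeat of intron 1 at 39.6 percentage points.

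In the protein kinase C family, 5 symbols were listed with 9 sites, all hypermethylated. Prkcz, the atypical zeta isoform, had 4: the pair before its internal start (chromosome 4, 154720027 and 154720052) at 53.5 and 69.6 percentage points, 1 in intron 1 at 55.3, and 1 intergenic site 7777 bp upstream at 41.9. In mm9 the internal start lies 15619 bp downstream of the other Prkcz start in the tables. The 2 sites of Prkcb, a conventional isoform of lymphocytes and other cells, were in introns 2 and 5 of 16 at 25.1 and 42.3 percentage points. Prkce had 1 site in intron 1, 1177 bp downstream of its start, with a listed difference of 34.8 percentage points, and this was the only member site with a CpG island label. Prkcsh matches by its symbol alone, since it encodes a subunit of glucosidase II, and its site (42.0 percentage points) lay in the 3′ UTR of Elavl3.

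Diacylglycerol kinases, which turn the activator of protein kinase C into phosphatidic acid, had 4 sites at 3 genes, 3 of them in promoters. Dgki had its pair at chromosome 6, 37250418 and 37250459, with listed differences of 41.3 and 63.2 percentage points. A promoter site of Dgkk on the X chromosome, 300 bp upstream, differed by 45.9 percentage points. Dgkg had 1 site in intron 1 of 24, 1138 bp downstream, at 59.5.

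Phosphoinositide 3-kinase names had 5 hypermethylated and 2 hypomethylated sites, and 3 of these 7 carried the label of a neighbouring gene. Pik3r5, a regulatory subunit of the gamma enzyme of leukocytes, had 2 cytosines 10 bp apart in intron 1 of 18 (chromosome 11, 68246249 and 68246259), listed at 75.1 and 35.5 percentage points. The 2 sites of Pik3r2 (chromosome 8, 73299922 and 73299935) were listed at 36.4 and 35.9 percentage points. They carried a promoter label of the neighbouring gene 2010320M18Rik. Pik3r1 had 1 intronic site at 26.7. The hypomethylated site nearest Pik3cd, the catalytic delta subunit of leukocytes, was the fourth largest of the 486 hypomethylated sites at -74.7 percentage points. It lay in the last exon, 19 of 19, of Clstn1, 15790 bp from the Pik3cd start. Pik3ap1, an adaptor that brings the kinase to B cell receptors, had an intergenic site 64680 bp upstream at -34.6. The inositol phosphatase genes Inpp5f and Inpp1 each had 1 site in intron 1, listed at 63.0 and 40.9 percentage points.

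Among regulators of serine/threonine phosphatases, all 12 sites at 7 genes were hypermethylated. The highest listed difference of the module belonged to Ppp2r2b, which encodes a B subunit of protein phosphatase 2A found mainly in brain. Its 2 sites, in intron 1 of 8 on chromosome 18, were listed at 81.8 and 52.4 percentage points, and the higher ranked 64 of all 6270 hypermethylated sites. Ppp2r2d had 1 intronic site at 45.9 and Ppp2r2c 1 intergenic site at 28.6. The 2 sites of Ppp2r5c were in an LTR repeat 29667 and 29709 bp upstream, listed at 29.8 and 31.2 percentage points. Ppp1r13l, whose product restrains the protein of the tumour suppressor gene Trp53, had 3 sites within 10 bp in exon 5 of 13 (chromosome 7, 19955755 to 19955765), listed at 35.6, 60.2 and 40.5 percentage points. The promoter site of Ppp1r14d, an inhibitory subunit, was listed at 56.2, and the sites nearest Ppp1r1b, the inhibitor that dopamine signalling controls, at 39.7 and 33.9.

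Calmodulin-dependent kinase names were led by Camk2n1, which encodes an inhibitor of the kinase. Camk2n1 had 6 sites, the most of any member, all intergenic on chromosome 4 between 138002926 and 138080946, from 8137 bp upstream to 69883 bp downstream of its start. Their listed differences were 49.5, 31.0, 26.0, 49.8, 59.8 and 50.6 percentage points. Camk1g had 1 site at 26.1 and Camk4 a hypomethylated one at -25.6, close to the limit of the list and 116650 bp into the gene. Of the phosphodiesterases, Pde10a had 2 intergenic sites 171088 and 142585 bp upstream, listed at 51.1 and 33.0 percentage points, and Pde2a had 2 intronic sites at 31.0 and 31.2. Pde8b, which degrades cyclic AMP, had a promoter site at 32.6, and Pde6a, of rod photoreceptors, an intronic site at 26.7.

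Hypermethylated member sites were most frequent on the flanks of transcription starts. The classes of distance were not among the planned results, and the class described first is the one with the highest member share. Of the 88 sites, 31 (35.2%, exact interval 25.3 to 46.1%) lay 500 to 2000 bp from a start, at 23 genes, against 21.4% of all hypermethylated sites. Of these 31 sites 23 were downstream, 15 of them in introns. The downstream excess was that of the lists, where 983 of the 1339 hypermethylated sites in this class were downstream. Closer than 500 bp lay 8 member sites (9.09%), against 14.6% of all hypermethylated sites. Sites of 1 gene share their source, and the difference between members and the rest was not tested. By region the share in the wider class, within 2000 bp, was 44.6% for members against 33.1% of all hypermethylated regions. For the class of 500 to 2000 bp no share by region is given, so the part of clustered sites in its contrast is unknown. The share of intronic sites that were in intron 1 was 55.6% for hypermethylated members and 53.4% for all hypermethylated sites. In the 23 genes the 300 bases around the start had a median of 20.8 CpGs (18 genes with a sequence), and in the 29 members with no site within 2000 bp a median of 19.2 (22 genes).

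**Figure D3:**
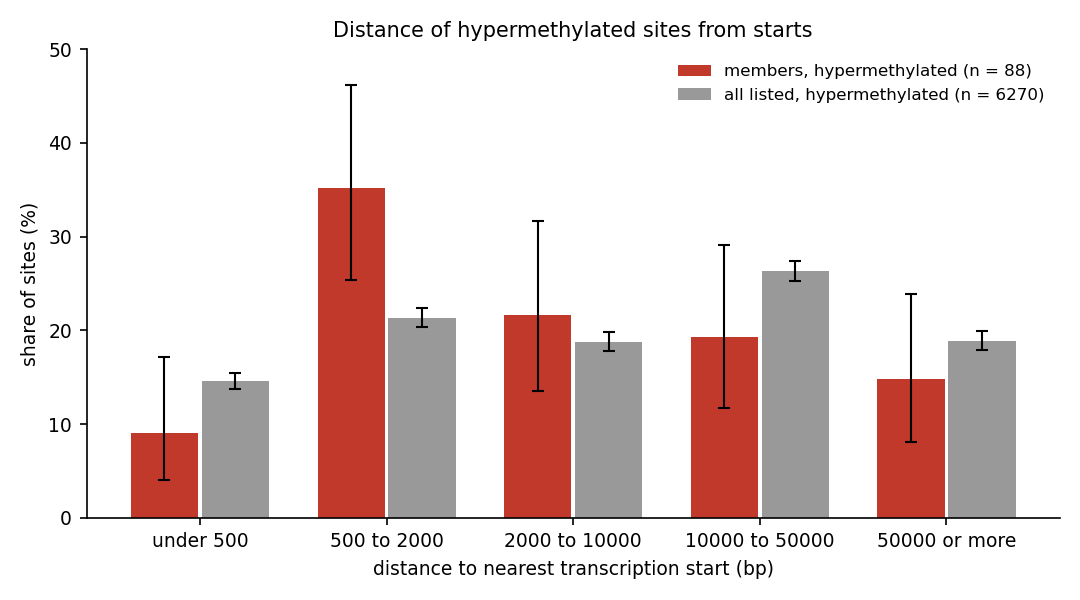
Share of hypermethylated sites (%) in 5 classes of distance (bp) to the nearest transcription start, for the 88 member sites and all 6270 sites; bars carry exact 95% intervals, which cover counting error only. The member share is 35.2% at 500 to 2000 bp, where that of all sites is 21.4%.

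The largest listed differences of the members lay mostly near starts. Of the 9 hypermethylated member sites with a listed difference of at least 60 percentage points, 8 lay within 2000 bp of a start, at Ppp2r2b, Pik3r5, Map3k10, Prkcz, Dgki, Inpp5f and Ptprg. Over all hypermethylated sites of that size 304 of 770 (39.5%) lay so near. The ninth member site was in exon 5 of Ppp1r13l. The 39 member sites within 2000 bp had a median listed difference of 44.0 percentage points and the 49 farther sites one of 35.6. For all hypermethylated sites in the authors' deposited table the same medians were 41.7 and 40.8 percentage points. This contrast was not planned and carries no test, since close sites are not independent.

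**Figure D4:**
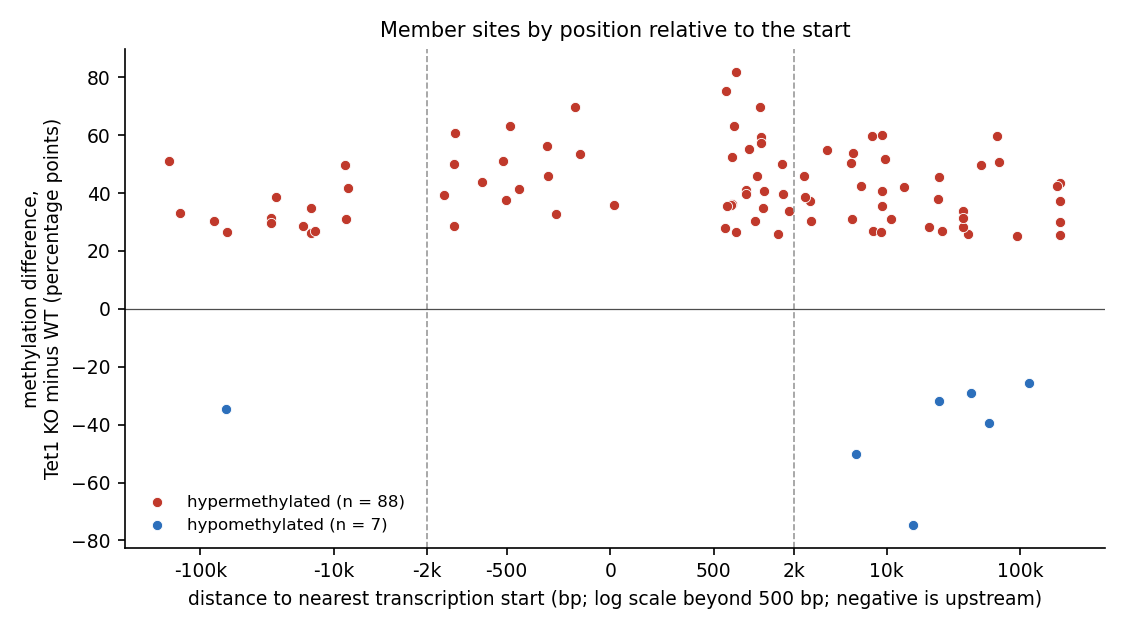
Listed difference (percentage points) of each member site against its signed distance to the nearest transcription start (bp, linear within 500 bp and logarithmic beyond; negative is upstream), with dashed lines at 2000 bp on either side. The highest differences stand between the lines, and all 7 hypomethylated sites stand outside them.

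Promoter labels, which run from 1000 bp upstream to 100 bp downstream of a start, were held by 14 member sites at 11 genes. In 9 genes the promoter was that of the named gene, and Map2k3 and Pik3r2 were the exceptions. The promoter share was 14.7% of member sites (exact interval 8.30 to 23.5%) against 10.7% of all listed sites. On the forward strand alone it was 6.38% (3 of 47 sites) against 10.9% of all listed sites, and on the reverse strand 22.9% (11 of 48) against 10.6%, so the order depended on the strand. Kinase families, grouped by name, held 11 of the 14 promoter sites, among 35 hypermethylated sites. Of all hypermethylated sites 11.2% were in promoters. The 11 include those at Map2k3 and Pik3r2, which carry the promoter label of another gene, and that of Mapk8ip2, a scaffold. Grouped by name, the 35 also hold sites of genes that encode no kinase, such as the 6 of the inhibitor Camk2n1 and that of Prkcsh. The 21 listed genes of tyrosine and dual-specificity phosphatases held 1, that of Ptprm, among 33 hypermethylated sites. Sites of 1 gene share their source, and these counts were not split by strand. The contrast between kinases and phosphatases was not tested, so no difference between them is drawn from it.

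Hypomethylated member sites were single cytosines far from starts, as were most hypomethylated sites of the lists. Of the 451 hypomethylated regions overall 436 held 1 site. None of the 7 lay within 2000 bp, where 9.47% of all 486 hypomethylated sites lay, a share at which 7 sites cannot show a difference. The nearest was that of Ptprv, in intron 6 of 37 at 5912 bp, with a listed difference of -50.0 percentage points. The Ptpr and Ptpn names held 4 of the 7, at Ptpn1, Ptpn14, Ptprs and Ptprv, and the phosphoinositide 3-kinase names 2. Ptprs, a receptor of proteoglycans on neurons, had a hypomethylated cytosine in exon 18 of 28 at -29.2 percentage points and a hypermethylated one in intron 1 at 42.5. In Ptpn1, Ptpn14 and Ptprs, the members listed in both directions, the sites nearest to a start were hypermethylated. Hypomethylated sites made up 3 of the 38 sites of kinase family names, 4 of the 23 of Ptpr and Ptpn names and 0 of the 12 of phosphatase regulatory subunits, where the share over all listed sites was 7.19%. These counts are too small to show that families differ.

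The nearest gene was not always the gene that holds the cytosine. Of the 95 sites 57 lay in the transcript or promoter of the named gene, 27 were intergenic, and 11 (11.6%) carried the label of another gene, at 7 members. Over all listed sites the last share was 10.6%. The other genes were Map2k3os, Ryr1, Clstn1, 2010320M18Rik, 1700003D09Rik (at Ppp1r1b), Elavl3 and Rps6kb2. At 12 members every listed site was intergenic, Camk2n1, Dusp10, Ptprg and Pde10a among them, a count not made over all nearest genes. Without the 11 sites, 84 sites were left and 92.9% of them were hypermethylated.

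Close cytosines show how far apart listed differences can stand over a short stretch. A pair was seen only where both of its cytosines had passed the limit of 25 percentage points, which narrows the gaps. Neighbours on 1 strand are different CpGs and may truly differ, so their gaps are not error alone. The gaps do not measure the spread between replicates. Ppp1r13l holds the only member CpG listed on both strands, with 35.6 percentage points on the forward and 60.2 on the reverse strand, a gap of 24.6. Over all 57 CpGs listed on both strands the gap had a median of 8.29 and a highest value of 40.4 percentage points. Neighbouring sites on 1 strand, at most 50 bp apart, formed 18 pairs in members, with a median gap of 9.74 percentage points against 7.64 over all 1848 such pairs. The widest was that of Pik3r5, 39.6 percentage points over 10 bp. Ptprg had equal and unequal neighbours: 2 of its cytosines 8 bp apart had the same listed value, 60.7, and the next cytosine, 5 bp away, had 28.6. Such neighbours may share reads. Of the 21 members with at least 2 sites 13 had them on 1 strand alone, whatever the distance between the sites. Prkcb is among the 13 with sites 94031 bp apart, so this is no count of sites that may share reads. It was not made over all nearest genes.

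**Figure D5:**
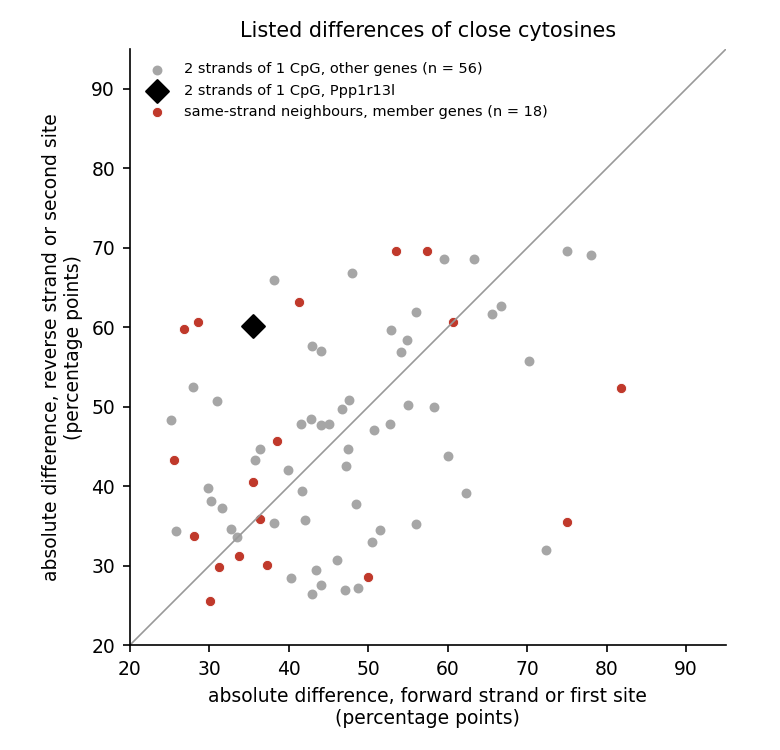
Absolute listed differences (percentage points) of close cytosines: the forward against the reverse strand of 1 CpG for 56 CpGs at other genes (grey) and 1 at Ppp1r13l (diamond), and the first against the second of 18 same-strand neighbours at members (red); the line marks equal values. The Pik3r5 pair (75.1 and 35.5) and the Ppp1r13l pair (35.6 and 60.2) stand far from the line.

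Partners of these pathways that the naming rule does not reach were counted in 3 lists chosen by function. Of all protein-coding genes 13.7% were nearest to a listed site, and 87.0% of all nearest genes had hypermethylated sites alone. Of 51 RAS, RAF and adaptor genes of the MAP kinase cascade, 7 (13.7%) were listed. Ksr1, Rasa3, Rasal1, Rasgrf1 and Spry2 had hypermethylated sites alone, Ksr2 both kinds and Spry4 a hypomethylated site. Rasal1, which switches RAS off, had 4 intronic sites, whose values in the authors' deposited table averaged 40.8 percentage points. Of 50 genes of cyclic nucleotide, calcium and lipid messengers 13 (26.0%) were listed, 10 of these 13 with hypermethylated sites alone. Adenylyl cyclase genes led that list: Adcy5 had 7 hypermethylated sites that averaged 45.5 percentage points, the 6 of Adcy1 averaged 44.3, and Adcy3 had a hypomethylated promoter site at -55.3 and Adcy4 a hypomethylated intronic one at -27.6. Of 23 catalytic subunits of serine/threonine phosphatases 3 (13.0%) were listed, Ppm1a, Ppm1e and Ppm1l, all hypermethylated alone. The shares of these lists were not tested against those of all genes.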

How the data were processed

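Per the file headers, the authors deposited 2 tables of cytosines on mm9, each with a methylation difference in percentage points (another kind of value than a level) and the distance to the nearest transcription start. Bismark is named in the submitters' processing notes, with no version or role. The caller, coverage minimum, q-value threshold and way of pooling replicates are not stated in any source used here. Columns with values per sample numbered 0, so depth and replicate error are unknown and no test was run.

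Positions are those of the cytosine. The filed sign of the distance follows the strand of the cytosine. Multiplied by that strand, it placed 613 of 613 promoter sites of their own transcript between 1000 bp upstream and 100 bp downstream, against 400 as filed. Against RefSeq promoter sequences (GRCm38.p6, used for names and sequences), 111 of 153 sites fell on a CpG, and 3 and 2 when shifted by 1 base. Of the 57 members 45 had a promoter sequence. Neighbouring sites with the same sign and a gap under 1000 bp made up 1 region, which gave 72 member regions. The joining and the naming rule were checked on constructed sites. Intervals are exact Clopper-Pearson (SciPy 1.17.1).

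Members and lists were chosen with earlier results of these data known. Genes named by rule had at least 3 sites, a promoter site, a hypomethylated site, 1 of the 5 highest differences, or the most sites of their family, 30 genes in all; other members were named after their values were seen, as were the Ppp1r14d and Ptprm sequences. The values of 1 member gene, counted but not named, and of 1 list of partner genes are not reported here.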

Additional observations from a re-analysis of the deposited data

How the results depend on the processing

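The lists fix a difference of at least 25 percentage points, 1 value per cytosine, so neither depth nor replicate error could be varied. No paired analysis was possible because the tables hold no per-sample values. Of the 95 member sites 44 (46.3%) remained when the limit was raised to 40 percentage points in either direction, against 51.7% of all listed sites. On the forward strand alone 47 (49.5%) remained, against 50.3% of all listed sites. Counting genes in place of sites left 57 units. At 40 percentage points the median of the hypermethylated member sites rose from 39.4 to 51.2 percentage points, by the construction of that limit. The promoter share fell from 14.7% to 6.38% on the forward strand alone; the cause was not tested. In the other 27 of 32 alternatives counts stayed within 1.5 times, and shares inside the exact interval, of the value reported: the hypermethylated share ran from 87.7 to 95.5%, the share within 2000 bp of a start from 42.9 to 54.8%, the median from 38.9 to 40.3 percentage points, and the number of regions from 70 to 74 when joining within 5000 or 200 bp. The alternatives without sites in another gene, within 50000 bp of a start, and on the share within 2000 bp were added after the data were seen. That share itself and the other results by distance were not planned either.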
